A study of Homo sapiens with 36 samples.

Results

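The genes described here are 10 protein-coding genes that mark the secretory cells of the lung. They comprise the surfactant protein genes SFTPA1, SFTPA2, SFTPB, SFTPC and SFTPD, the secretoglobin genes SCGB1A1 and SCGB3A2, and the mucin genes MUC1, MUC5AC and MUC5B. They were chosen by name, as 10 of 20033 protein-coding genes, and every peak within 3 kb of any of their annotated start sites, or within 50 kb, was ascribed to them. The peaks came from chromatin immunoprecipitation followed by sequencing (ChIP-seq). The tumor line was A549, from a human lung adenocarcinoma, and the other BEAS-2B (B2B), bronchial epithelium of human origin immortalized with a viral gene. The labels give no treatment, and both lines were grown in the same medium. The 7 targets measured in both lines were RNA polymerase II (pol II, antibody 8WG16), H3K4me3, H3K27ac, Med1, JunB, Jun and JunD, and CTCF and Rad21 were measured in B2B. Each target had 2 replicates, whose reads were merged by the authors ahead of peak calling. Each of the 16 peak lists is therefore 1 pool, so that no replicate error can be given and no test between A549 and B2B can be made. With 1 line of each kind, a difference between tumor and non-tumor cells cannot be told apart from any other difference between the lines.

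Pulmonary surfactant is a film of lipid and protein that lowers surface tension at the air-liquid interface. It is made by alveolar type II cells. SFTPB and SFTPC are hydrophobic peptides that spread the film, while SFTPA1, SFTPA2 and SFTPD are collectins, which bind sugars on microbes. SCGB1A1 is the classical marker of club cells of the small airways, and SCGB3A2 is a related secretoglobin of the airway epithelium. MUC5AC and MUC5B are the gel-forming mucins of airway mucus, made by goblet cells and submucosal glands, and MUC1 is a mucin anchored in the plasma membrane of many epithelia. Of the targets, pol II and H3K4me3 sit at promoters in use, H3K27ac and Med1 at active promoters and enhancers, and CTCF and the cohesin subunit Rad21 at boundaries and loop anchors. JunB, Jun and JunD are subunits of the transcription factor AP-1, whose binding letters are TGAGTCA or, read on the other strand, TGACTCA.

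The sequences on which the results turn are shown here, with coordinates in hg38. The longest is 300 bases of a region upstream of MUC5AC, chr11:1155216-1155515, which is shown because JunB and Jun peaks of A549 covered it, a JunD peak overlapped its start, and the AP-1 letters, in capitals, recur in it 7 times.
MUC5AC upstream, A549 only: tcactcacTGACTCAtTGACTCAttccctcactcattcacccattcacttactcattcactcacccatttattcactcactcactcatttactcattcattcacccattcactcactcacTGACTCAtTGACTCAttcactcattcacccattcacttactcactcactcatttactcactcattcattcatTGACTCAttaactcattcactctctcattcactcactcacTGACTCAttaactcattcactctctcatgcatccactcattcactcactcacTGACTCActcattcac

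Short words such as ttca and ctca repeat through this stretch. The whole region, chr11:1154891-1155976, held 12 copies of TGACTCA, all on the plus strand, and neighboring copies started between 8 and 243 bases apart. Of 51491 merged Jun-family regions of both lines on chromosomes 1 to 12, only 10 (0.0194%) held 12 or more copies, and 42.1% held at least 1. A neighboring region that was bound in both lines carried the letters in ordinary sequence, 16 bases from the B2B Jun summit. It is shown on the plus strand at chr11:1154130-1154176.
MUC5AC upstream, both lines: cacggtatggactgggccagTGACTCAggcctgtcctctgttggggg

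Of the surfactant genes, SFTPA2 and SFTPB each had a Jun peak of B2B inside an intron, and both peaks held the letters close to their summit, 11 bases away at SFTPA2 and 9 bases away at SFTPB. These sites are shown along the gene strand, chr10:79559923-79559949 and chr2:85662946-85662972.
SFTPA2 intron, B2B only: acagatggagTGAGTCAgtgagtgagt
SFTPB intron, B2B only: cctcaaggtgTGACTCActcaggacaa

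SFTPA1 and SFTPA2 are near-identical genes that point away from each other, with start sites 50.5 kb apart. Each had a CTCF peak of B2B just upstream. The match to the CTCF core is in capitals, and both sites are shown along their own gene, chr10:79608925-79609005 on the plus strand and chr10:79562269-79562349 on the minus strand. A further CTCF site lay upstream of MUC1, chr1:155193611-155193691, also on the minus strand.
SFTPA1 upstream, CTCF in B2B: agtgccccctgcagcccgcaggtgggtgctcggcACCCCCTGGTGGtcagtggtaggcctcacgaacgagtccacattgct
SFTPA2 upstream, CTCF in B2B: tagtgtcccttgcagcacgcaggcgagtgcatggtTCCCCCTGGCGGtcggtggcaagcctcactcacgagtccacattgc
MUC1 upstream, CTCF in B2B: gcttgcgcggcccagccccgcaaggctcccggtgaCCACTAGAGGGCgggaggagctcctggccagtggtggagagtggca

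Along the gene strand, 86.2% of 210 aligned bases around the SFTPA1 and SFTPA2 sites were identical, and the longest run without a difference was 29 bases. The CTCF core matched at 11 of 12 positions at SFTPA1, at 10 of 12 at SFTPA2 and at 12 of 12 at MUC1. At SFTPA1 and SFTPA2 the core read against the direction of the gene, so that the cores, 46.7 kb apart, faced each other across the interval between the genes. The summits lay 7, 8 and 4 bases from these cores.

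Peaks near the members were uneven. Within 3 kb, SCGB1A1 and SCGB3A2 had no peak in any of the 16 lists, while MUC5B had 33 peaks in the 7 A549 lists and 1 in the 7 B2B lists, and MUC1 had 6 and 11. Counted as pairs of gene and target, 23 of 70 pairs carried a peak in A549 and 13 of 70 in B2B. Over all protein-coding genes, too, a peak was more frequent in A549 for every target but Med1, with the shares given below. A higher count in A549 is therefore not particular to the members. Genes without any peak in 14 lists numbered 3 of 10 (SFTPA1, SCGB1A1 and SCGB3A2), where 18.7% of 12573 protein-coding genes on chromosomes 1 to 12 had none. With CTCF and Rad21 added, 2 of 10 members and 15.9% of all genes had none in 16 lists. A gene without a peak is one where the caller's threshold was not passed in the pooled reads, and reads below that threshold were not measured here.

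**Figure D1:**
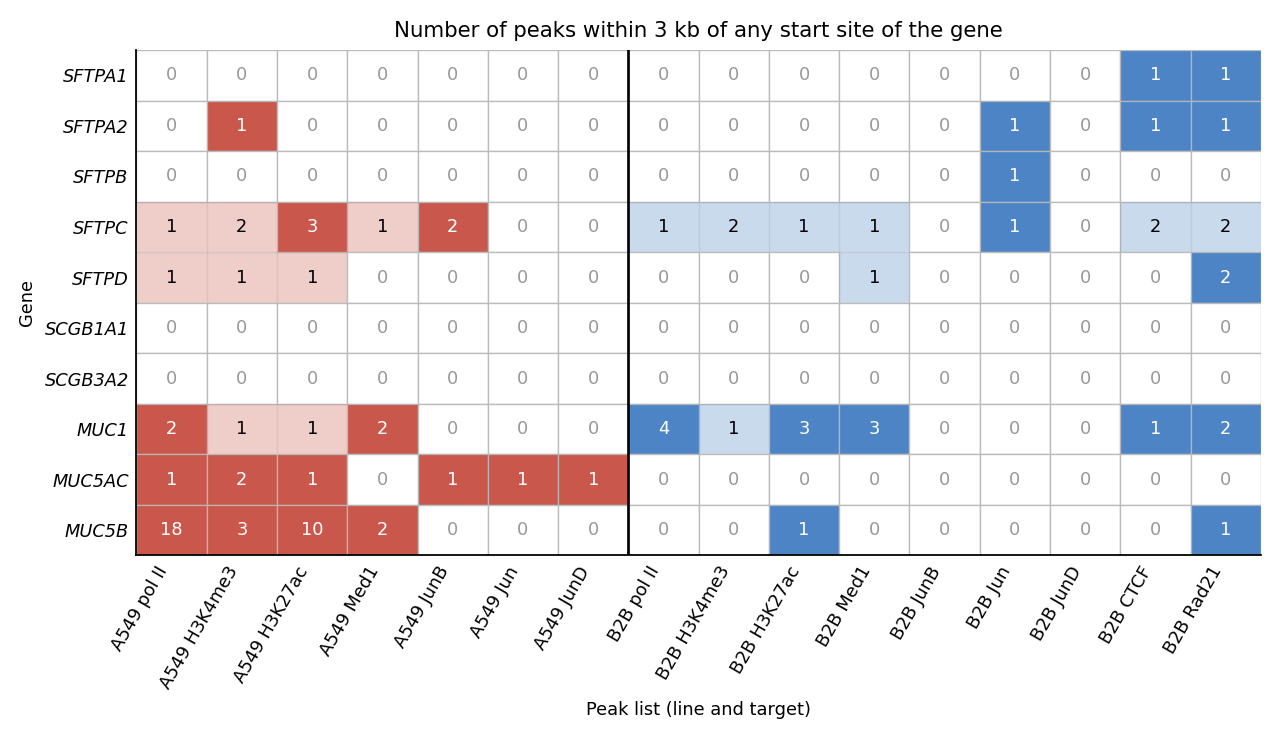
Number of peaks within 3 kb of any start site, for the 10 genes (vertical axis) in each of the 16 lists (horizontal axis; A549 red, B2B blue). Dark cells hold at least 1 peak whose nearest annotated start site is that of the gene itself, pale cells only peaks nearer to the start of another gene, and white cells none: SCGB1A1 and SCGB3A2 are empty throughout, and MUC5AC is filled in A549 only.

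For pol II, H3K4me3, H3K27ac and Med1 the share of members with a peak was below the share of all protein-coding genes of chromosomes 1 to 12 in both lines, a description without a test. Pol II lay within 3 kb of 5 of 10 members in A549 and 2 of 10 in B2B, against 68.8% and 51.7% of all genes. H3K4me3 lay near 6 and 2 members, against 74.6% and 63.1%. H3K27ac lay near 5 and 3, against 73.5% and 64.3%, and Med1 near 3 and 3, against 54.2% and 60.7%. For the Jun family, JunB lay near 2 members in A549 and 0 in B2B (32.3% and 5.77% of all genes), Jun near 1 and 3 (39.2% and 27.1%), and JunD near 1 and 0 (17.7% and 3.68%). In B2B, CTCF lay near 4 members (50.9%) and Rad21 near 6 (68.1%), and both near the same 4 (43.9%), SFTPA1, SFTPA2, SFTPC and MUC1. With 10 genes, each member moves such a share by 10 percentage points.

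Except for Jun and Med1, members whose call differed between the lines had the peak in A549. Members with a peak in A549 and not in B2B numbered 3 for pol II (18.5% of all genes), 4 for H3K4me3 (12.8%), 2 for H3K27ac (11.2%), 1 for Med1 (3.99%), 2 for JunB (27.6%), and 1 each for Jun (19%) and JunD (16%). The reverse, a peak in B2B and not in A549, was seen for 3 members with Jun (6.94%) and for 1 with Med1 (10.5%). It was seen for 0 members with pol II (1.43%), H3K4me3 (1.26%), H3K27ac (2.02%), JunB (1.06%) and JunD (1.92%). The median background over each list was 2.36 reads in A549 and 9.31 in B2B for pol II. It was 3.31 and 27.7 for H3K4me3, and 2.26 and 11.5 for H3K27ac. A call weighs reads against background, and how far this bears on the peaks absent in B2B was not tested. The 3 members with Jun in B2B alone were SFTPA2, SFTPB and SFTPC, all surfactant genes, and the members with Jun-family peaks in A549 were MUC5AC and SFTPC. Any Jun-family peak lay near 2 members in A549 (45% of all genes) and near 3 in B2B (27.2%).

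Many of these peaks had their summit nearer to the start of another gene than to that of the member. Which gene such a peak serves was not tested. When only peaks whose nearest start site was that of the member were counted, an alternative chosen once values had been seen, the pairs of gene and target fell from 23 to 15 in A549 and from 13 to 7 in B2B. The pairs lost were at SFTPC, SFTPD and MUC1, described below with the neighbors named.

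The mucin genes carried most of the peaks. MUC5AC (ENSG00000215182.8, chromosome 11, 1157953 to 1201138, plus strand) and MUC5B (ENSG00000117983.17, chromosome 11, 1223066 to 1262172, plus strand) lie in tandem. In A549, pol II peaks covered 69.8% of the body of MUC5B, with 27.3 kb in 29 peaks, and in B2B they covered none of it. The median gene had 1.24% of its body covered in the A549 pol II list, and 97.7% of genes had a smaller share than MUC5B. The 55 A549 pol II peaks within 50 kb of MUC5B exceeded the number at 99.9% of genes, where the median was 3. B2B had 1 pol II peak there, at the start of TOLLIP, the next gene.

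At the MUC5B start, the A549 pol II peak nearest to it had its summit at 53 bases, with 56 reads at the summit (95% Poisson interval 42.3 to 72.7) and a fold enrichment of 13.8 over the caller's background. An H3K27ac peak from 1221840 to 1225870 spanned the start with 123 reads and a fold of 25.4, and an H3K4me3 peak from 1223091 to 1225104 had 43 reads and a fold of 6.14. A second H3K27ac peak, 3276 bases wide with its summit 2.6 kb upstream, was deeper, with 224 reads (196 to 255) and a fold of 56.0. Med1 had its deepest peak within 3 kb of MUC5B there, with 36 reads and a fold of 10.1. Both summits were nearer to the start of a noncoding RNA gene, ENSG00000286275, at 1934 and 1549 bases, than to that of MUC5B. In B2B, none of pol II, H3K4me3, H3K27ac and Med1 had a peak within 3 kb of the MUC5B gene start. No Jun-family peak lay within 3 kb of any MUC5B start site in either line.

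At the 3' end of MUC5B, H3K27ac was called in both lines. H3K27ac had a peak from 1261167 to 1263500 in A549, with 169 reads (144 to 196) and a fold of 48.5, and from 1262275 to 1262736 in B2B, with 123 reads (102 to 147) and a fold of 5.83. These folds belong to different lists and are not comparable, since the background that the caller used was 2.51 reads in A549 and 20.3 reads in B2B. The summits lay 39.5 kb downstream of the start, past the annotated end of the gene, and counted as near it only because MUC5B has start sites annotated close to its end. Pol II (136 reads, fold 38.4) and H3K4me3 (79 reads, fold 18.7) peaked there in A549 but had no peak in B2B, and Rad21 in B2B had a peak of 45 reads at 1262564 to 1262860, just past the 3 kb limit. The Rad21 peak of B2B within that limit, 39 reads at 1226291 to 1226449, lay in an intron 3.27 kb into the gene.

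**Figure D2:**
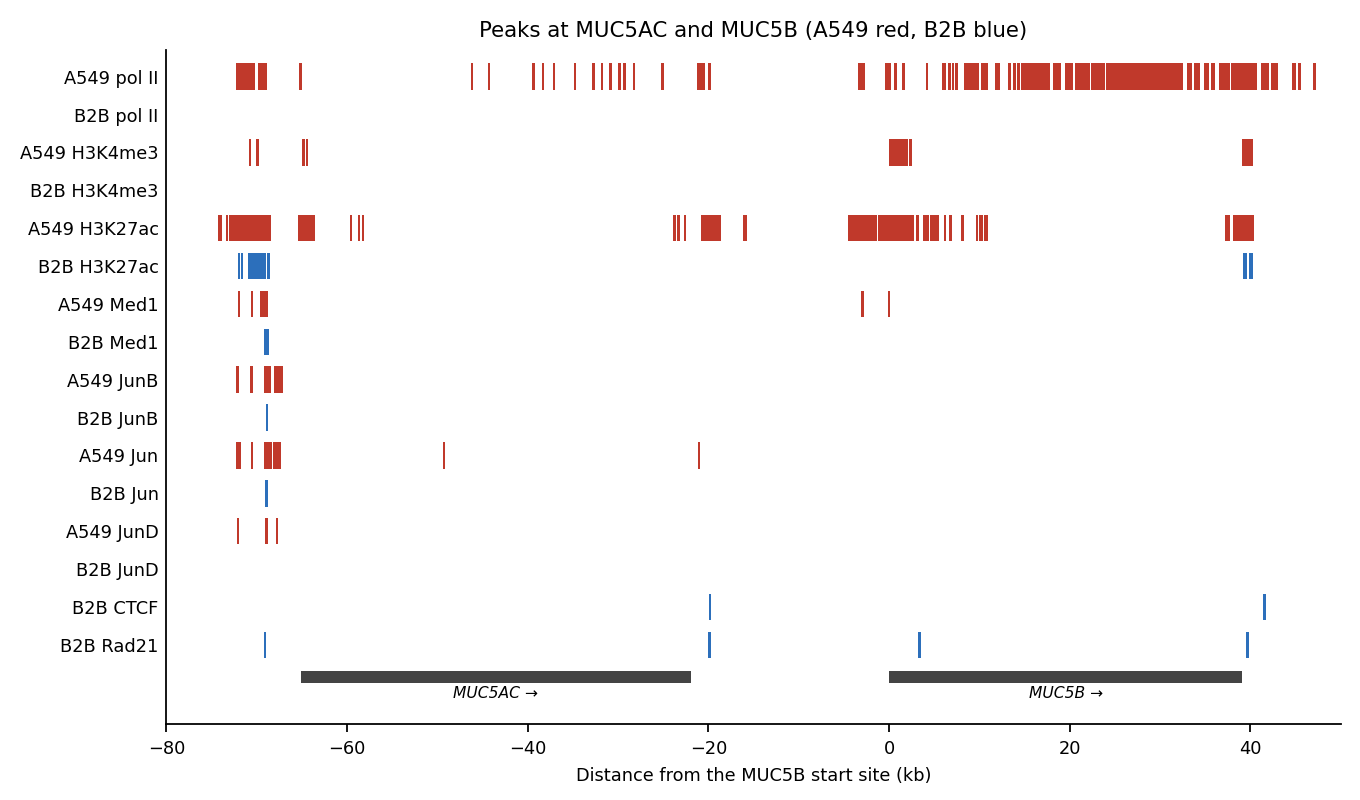
Peaks of the 16 lists (rows; A549 red, B2B blue) along MUC5AC and MUC5B, by distance in kb from the MUC5B start site; each bar spans 1 peak, widened to a visible minimum, and dark bars show the genes, both read left to right. A549 pol II fills most of MUC5B, while the B2B peaks stand upstream of MUC5AC, between the genes, in an intron of MUC5B (Rad21) and past its 3' end.

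MUC5AC was marked at its start in A549 only, and weakly. The pol II peak at 1157775 to 1158080 had its summit 32 bases upstream of the start, with 40 reads (28.6 to 54.5) and a fold of 8.62. The H3K27ac peak had 39 reads and a fold of 8.99, and the deeper of 2 H3K4me3 peaks had 18 reads and a fold of 4.29, at percentile 13.8 of its list. In A549, pol II covered 7.27% of the body of MUC5AC, a larger share than at 81.1% of genes. No list of B2B had a peak within 3 kb of MUC5AC.

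The Jun-family proteins gathered upstream of MUC5AC in 4 regions of A549. The region of 12 AP-1 motifs shown above, centered 2.52 kb upstream, had peaks of JunB (39 reads, 27.7 to 53.3, fold 8.02), Jun (32 reads, 21.9 to 45.2, fold 11.6) and JunD (19 reads, 11.4 to 29.7, fold 4.64). MUC5AC was thereby the only member with all 3 proteins within 3 kb in A549, as were 13.9% of all genes. No B2B list had a peak in this region. The reads of a tandem repeat can be hard to place, and how they were handled was not tested.

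The next region upstream, 1153851 to 1154732 and centered at 3.66 kb, lay just past the 3 kb limit and was bound in both lines. In A549 it was the strongest Jun-family site of the locus, with 179 JunB reads (fold 38.2, percentile 99.5 of the list), 123 Jun reads (fold 46.5, percentile 97.4) and 54 JunD reads (fold 14.1, percentile 97.4). In B2B it had 161 Jun reads (fold 10.1) and 110 JunB reads (fold 3.54), while JunD had no peak. The background at these summits was 1.67 reads in A549 and 15 in B2B for Jun, and 3.71 and 30.4 for JunB, so that the folds of the lines differed more than their reads. H3K27ac and Med1 covered the same place in both lines, with 297 H3K27ac reads in A549 and 193 in B2B, and 56 Med1 reads in A549 and 33 in B2B. This region held 3 AP-1 motifs, while the regions at 5.43 and 6.91 kb upstream, which were called in A549 alone, held none.

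Between MUC5AC and MUC5B, about 20 kb upstream of MUC5B, B2B had a CTCF peak of 148 reads at 1203082 to 1203289 and a Rad21 peak of 234 reads at 1203021 to 1203364. An A549 H3K27ac peak of 81 reads, from 1202191 to 1204447, overlapped both. For A549, neither CTCF nor Rad21 is analysed here.

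MUC1 (ENSG00000185499.17, chromosome 1, 155185824 to 155192916, minus strand) was near peaks of the same 4 targets in both lines. Within 3 kb, the targets with a peak were pol II, H3K4me3, H3K27ac and Med1 in each. Summit reads were close between the lines, but the background that the caller used there was not. The deepest pol II peak had 164 reads in A549 (140 to 191) and 161 in B2B (137 to 188), and the deepest H3K27ac peak had 233 reads (204 to 265) and 232 (203 to 264). H3K4me3 had 154 and 161 reads. Behind pol II stood a background of 4.05 reads in A549 and 48 in B2B, which gave folds of 32.7 and 3.3. Behind H3K27ac it was 4.31 and 36.8 reads (folds 44.1 and 6.16), and behind H3K4me3 5.8 and 59.8 (folds 22.8 and 2.67). The intervals of the reads cover counting error only and include the background, so equal reads are not equal enrichment, and the source of the higher background in B2B was not tested. No Jun-family peak lay within 3 kb of MUC1 in either line.

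**Figure D3:**
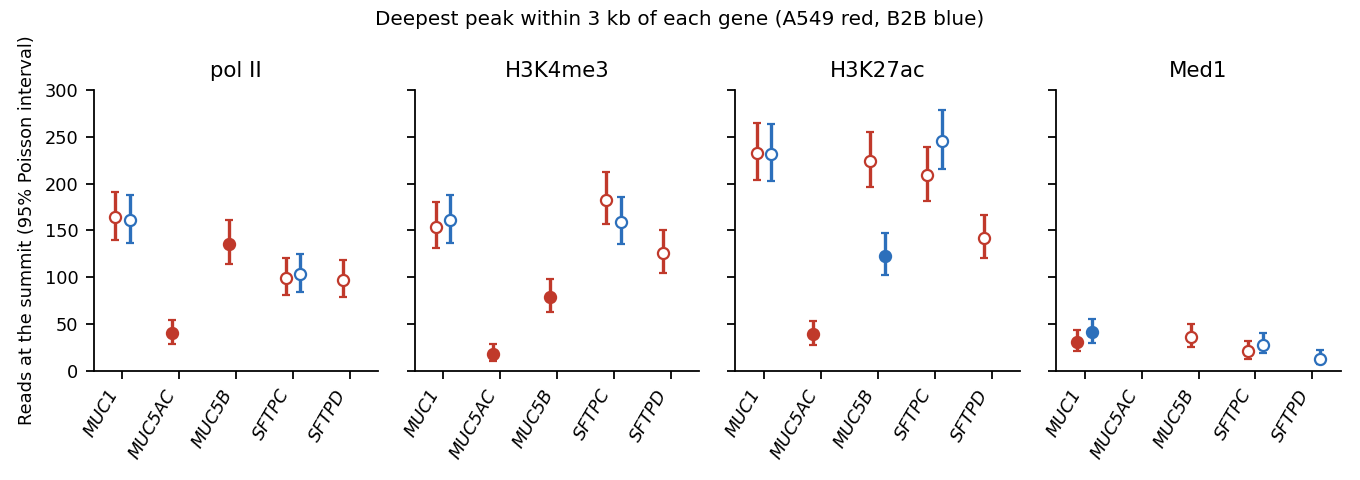
Reads at the summit of the deepest peak within 3 kb of each gene (vertical axis, with 95% Poisson intervals that cover counting error only) for pol II, H3K4me3, H3K27ac and Med1, in A549 (red) and B2B (blue). Open points are peaks nearer to the start of another gene, and a missing point means no peak: reads include the background of the caller, so that at MUC1 the points overlap for pol II at 164 and 161 reads over a background of 4.05 reads in A549 and 48 in B2B, and at MUC5AC only A549 has points.

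Most of the MUC1 peaks lay between MUC1 and the next gene upstream, THBS3, which encodes a thrombospondin. The pol II peak nearest to MUC1 had its summit 786 bases from its nearest start in A549 (154 reads) and 866 bases in B2B (115 reads). The deepest, with the 164 and 161 reads given above, was at the start of the antisense gene THBS3-AS1, and B2B had 2 further pol II peaks, of 145 and 35 reads. The H3K4me3 peak and the deepest H3K27ac peak had their summits nearer to THBS3-AS1 in A549 and to the microRNA gene MIR92B in B2B. The A549 H3K4me3 peak spanned 155193077 to 155195722, while that of B2B, 155195043 to 155196001, overlapped only the upstream end of it. B2B also had an H3K27ac peak of 61 reads in an exon of MUC1. No pol II peak lay within the body of MUC1 in either list.

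At the upstream pol II site of MUC1, B2B also had CTCF and Rad21. The CTCF peak, 155193375 to 155193834, had 245 reads (215 to 278) and a fold of 12.3, with its summit 731 bases upstream of the nearest start. Rad21 had 215 reads (187 to 246), 776 bases upstream. Med1 had its summit 758 bases upstream in A549 and 775 in B2B, with 31 and 41 reads. In B2B, pol II, Med1, CTCF and Rad21 thus all had a peak over the CTCF letters shown above.

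**Figure D4:**
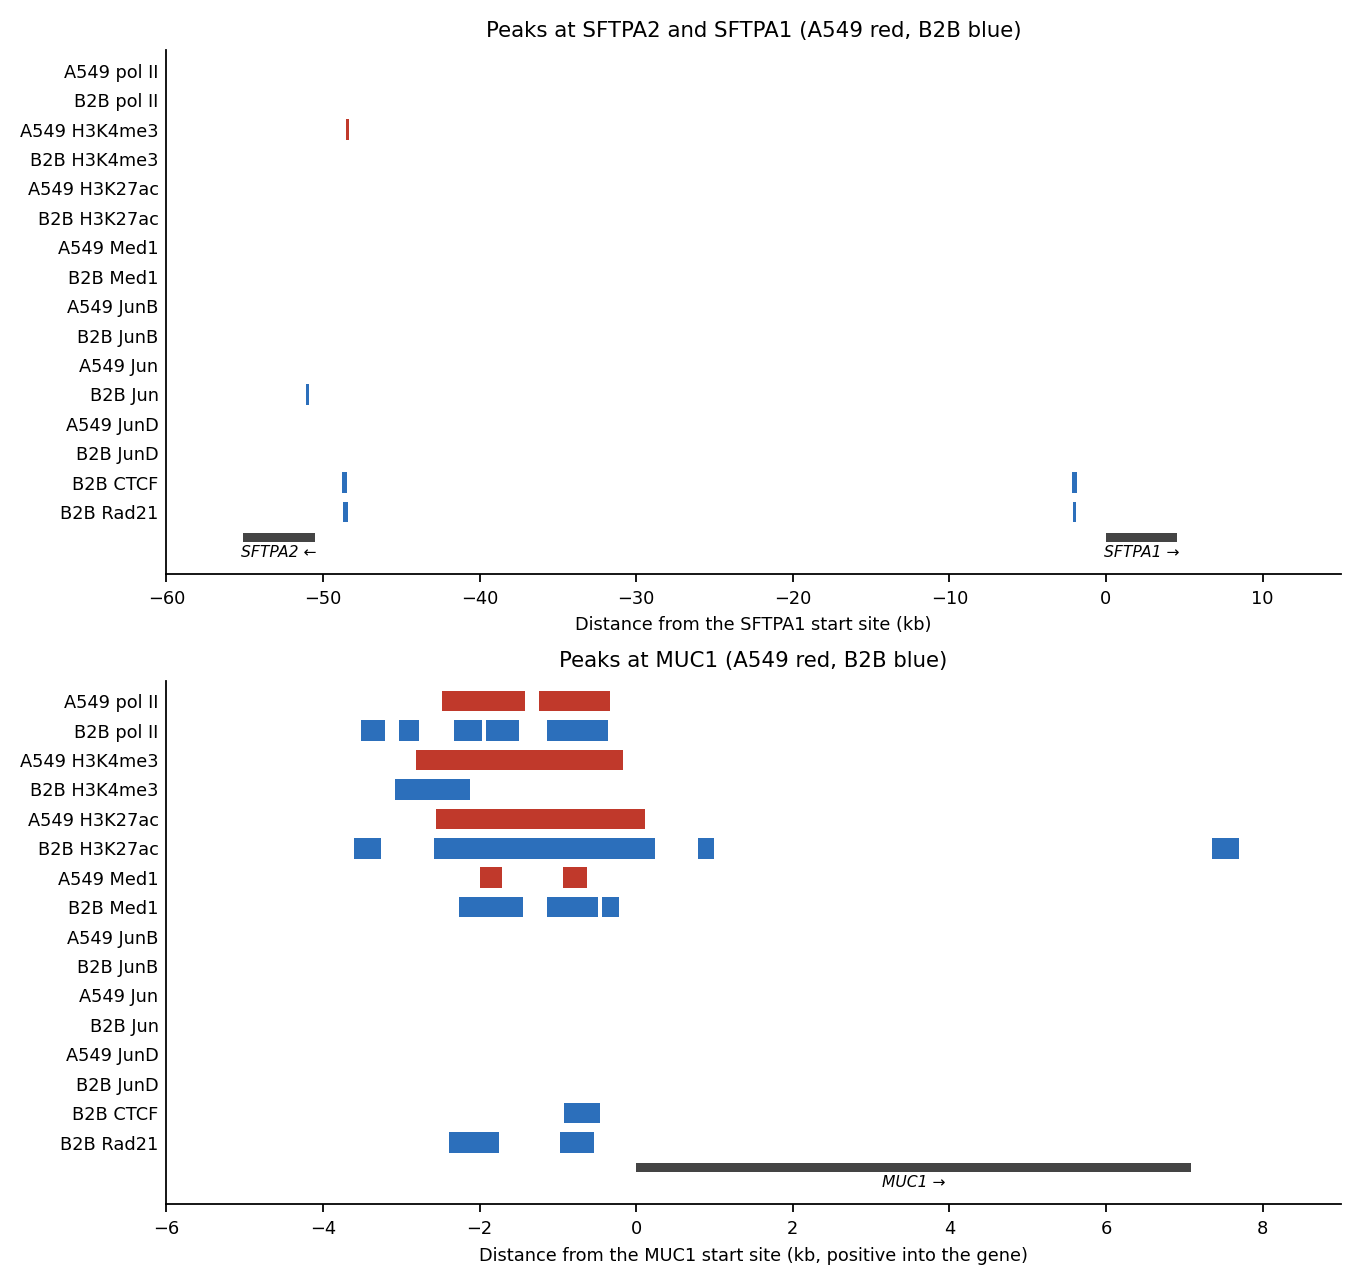
Peaks of the 16 lists (rows; A549 red, B2B blue) at SFTPA2 and SFTPA1 (upper panel, distance in kb from the SFTPA1 start) and at MUC1 (lower panel, distance in kb from the MUC1 start, positive into the gene). In the upper panel B2B CTCF and Rad21 stand just upstream of each gene and no pol II, H3K27ac or Med1 peak is drawn; in the lower panel the peaks of both lines stack upstream of MUC1, and the Jun-family rows are empty.

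The surfactant genes had few marks of their own. SFTPA1 (ENSG00000122852.15, chromosome 10, 79610939 to 79615455, plus strand) had no peak of the 14 lists within 3 kb. It carried only CTCF (117 reads, 96.8 to 140, fold 38.6, percentile 94.8 of the list) and Rad21 (19 reads, 11.4 to 29.7, fold 9.83) in B2B, with summits 1981 and 2000 bases upstream. SFTPA2 (ENSG00000185303.17, chromosome 10, 79555852 to 79560407, minus strand) had the mirrored pair, CTCF with 138 reads (116 to 163, fold 32.2) 1910 bases upstream and Rad21 with 20 reads (12.2 to 30.9) 2022 bases upstream. In the 151 kb around both genes there was no pol II, H3K27ac or Med1 peak in either line. Reads that match both of these near-identical genes can be placed at either, and how many did so was not tested.

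Around this CTCF pair, SFTPA2 had an H3K4me3 peak of 18 reads in A549, 2059 bases upstream, at percentile 4.18 of its list. It also had the B2B Jun peak of 23 reads (14.6 to 34.5, fold 7.75), 460 bases into the gene. In A549, neither SFTPA1 nor SFTPA2 had JunB, Jun or JunD within 50 kb.

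SFTPB (ENSG00000168878.19, chromosome 2, 85657314 to 85668741, minus strand) had a single peak within 3 kb, Jun in B2B, with 28 reads (18.6 to 40.5) and a fold of 5.86, 5.23 kb downstream of its canonical start and 510 bases from an internal start. Within 50 kb it had 8 Jun-family regions, of which 5 were bound in both lines, 3 in B2B alone and none in A549 alone. The strongest, 85702121 to 85702583, lay 34.2 kb upstream between genes, with the start of GNLY as its nearest, the gene of a lymphocyte granule protein. Jun had 104 reads there in A549 (fold 37.5) and 59 in B2B (fold 21.5), and JunB and JunD were bound in both lines. The AP-1 letters lay 14 bases from the A549 summit, shown along the SFTPB strand at chr2:85702300-85702346.
SFTPB distal, both lines: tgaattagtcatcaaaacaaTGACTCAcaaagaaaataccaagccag

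SFTPC (ENSG00000168484.13, 22156913 to 22164479 on the plus strand of chromosome 8) was near peaks of 12 of the 16 lists within 3 kb, nearly all with summits nearer to other genes. Its annotated start sites reach from the start of LGI3, on the one side, to near the start of BMP1, a procollagen protease, on the other. At BMP1, pol II had 99 reads in A549 and 103 in B2B, H3K27ac 209 and 246, and H3K4me3 183 and 159. As at MUC1, the background differed. Pol II had 2.18 and 32.4 background reads (folds 31.4 and 3.12), H3K27ac 2.59 and 29.9 (folds 58.5 and 7.98), and H3K4me3 3.11 and 49.6 (folds 44.7 and 3.16). CTCF (223 reads) and Rad21 (276 reads) peaked there in B2B. At the LGI3 end, A549 peaks of H3K4me3 (96 reads, fold 21) and H3K27ac (75 reads, fold 22.2) spanned the annotated gene start of SFTPC. Their summits were nearer to the LGI3 start. In B2B only Rad21 had a peak there, with 54 reads over a background of 20.5 reads. Only 3 peaks had summits nearer to a start of SFTPC than to that of another gene, and they lay at 1 place, about 1.9 kb upstream of the canonical start. These were A549 H3K27ac (27 reads, 17.8 to 39.3, fold 6.97), A549 JunB (25 reads, 16.2 to 36.9, fold 5.79) and B2B Jun (44 reads, 32.0 to 59.1, fold 4.15). No pol II or H3K4me3 peak lay at this place in either line.

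SFTPD (ENSG00000133661.17, chromosome 10, 79937467 to 79982614, minus strand) had its marks at its most distant start site, 33 kb upstream of the canonical start, where the pseudogene ZNRF2P3 also begins. In A549, pol II had 97 reads (78.7 to 118, fold 15.8), H3K4me3 126 reads (fold 26.8) and H3K27ac 142 reads (fold 35.6). In B2B, none of these had a peak there, but Rad21 had 2 peaks, of 88 and 67 reads, and Med1 a peak of 13 reads. The background behind the 2 Rad21 peaks was 15.5 and 18.5 reads. For targets without a peak in B2B the background at this place is not known. Within 3 kb of the canonical start of SFTPD there was no peak in any list.

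The secretoglobin genes had no peak within 3 kb, and within 50 kb the counts differed by target. SCGB1A1 (ENSG00000149021.7, chromosome 11, 62405103 to 62423195, plus strand) and SCGB3A2 (ENSG00000164265.9, chromosome 5, 147870682 to 147882191, plus strand) had no pol II or Med1 peak within 50 kb in either line. H3K4me3 had 1 peak within 50 kb of SCGB3A2 in A549 and 0 in B2B, and 2 and 1 near SCGB1A1. SCGB3A2 had no H3K27ac peak there, while SCGB1A1 had 1 in A549 and 3 in B2B. Around SCGB1A1 there were 4 Jun-family regions, 3 in B2B alone and 1 in both lines, and the nearest to the gene was 7.78 kb downstream of its canonical start. A CTCF peak of 223 reads with a Rad21 peak of 267 reads (fold 24.4, percentile 97.1 of the list) stood in B2B at 62424725 to 62425070, just past the end of the gene.

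At SCGB3A2, however, a strong Jun-family region of A549 lay 43.2 kb upstream. It spanned 147835239 to 147835842, between genes and nearest to the start of SPINK1, a trypsin inhibitor, 3.86 kb away. Jun had 165 reads and a fold of 70.9, above 99.7% of the peaks in its list, JunB had 73 reads (fold 24.3) and JunD 48 reads (fold 12.4). B2B had no peak of any target there. The region held neither TGAGTCA nor TGACTCA, and 81 bases around the Jun summit, chr5:147835491-147835571 on the plus strand, are shown for that reason, without capitals.
SCGB3A2 distal, A549 only: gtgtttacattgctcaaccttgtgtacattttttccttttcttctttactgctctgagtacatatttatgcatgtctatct

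Across the 8 loci, in which the windows of SFTPA1 and SFTPA2 and those of MUC5AC and MUC5B merge, there were 45 Jun-family regions within 50 kb. Of these, 18 were bound in both lines, 16 in A549 alone and 11 in B2B alone. The AP-1 letters were present in 11 of the 18 shared regions (61.1%), in 2 of the 16 of A549 alone (12.5%) and in 8 of the 11 of B2B alone (72.7%). Over all Jun-family regions of chromosomes 1 to 12 the shares were 59.2%, 35.8% and 35.7%. The regions of 1 locus share their surroundings and are not independent, so these shares are given as a description.

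The same letters stood in member promoters that carried no Jun-family peak. RefSeq sequences (GRCh38.p14) of the 250 bases before the start were at hand for 6 members, and 3 of them, SFTPB, SFTPD and SCGB3A2, held TGAGTCA or TGACTCA, as did 3.17% of 15345 protein-coding genes. None of these 3 had a Jun-family peak at this start in either line. The promoter of SCGB3A2, chr5:147878461-147878710, is shown with the letters in capitals.
SCGB3A2 promoter: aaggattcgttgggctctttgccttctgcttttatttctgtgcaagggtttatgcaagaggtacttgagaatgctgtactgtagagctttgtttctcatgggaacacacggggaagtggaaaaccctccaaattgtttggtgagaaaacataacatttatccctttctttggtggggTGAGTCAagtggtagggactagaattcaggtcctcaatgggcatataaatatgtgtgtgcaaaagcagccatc

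The promoters also differed in their content of CpG, the dinucleotide that is dense in promoters of widely used genes. The 250 bases of MUC1 held 11 CpG, where the median protein-coding gene had 17. The other promoters held between 0 and 2. The ratio of observed to expected CpG was 0.451 at MUC1 and between 0 and 0.18 at the others, where the median gene had 0.742. The promoters of MUC1, chr1:155192916-155193165, and of SFTPA2, chr10:79560408-79560657, are shown along the minus strand with CpG in capitals, as the member with the most and the member with none.
MUC1 promoter: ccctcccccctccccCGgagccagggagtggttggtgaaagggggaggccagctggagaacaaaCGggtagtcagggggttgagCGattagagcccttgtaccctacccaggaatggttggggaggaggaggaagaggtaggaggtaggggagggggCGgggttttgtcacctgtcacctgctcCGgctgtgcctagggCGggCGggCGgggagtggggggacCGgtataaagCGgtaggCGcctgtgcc
SFTPA2 promoter: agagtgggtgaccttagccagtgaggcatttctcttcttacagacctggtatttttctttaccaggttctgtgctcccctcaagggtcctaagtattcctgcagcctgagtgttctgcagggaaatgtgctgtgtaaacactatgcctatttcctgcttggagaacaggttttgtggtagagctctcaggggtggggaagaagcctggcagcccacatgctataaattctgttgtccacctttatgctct

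Within 50 kb the counts of peaks leaned towards A549, and MUC5AC and MUC5B accounted for most of the difference. For pol II the 8 loci held 94 peaks in A549 against 23 in B2B (ratio 4.09), where the ratio of the whole lists on chromosomes 1 to 12 was 1.96. Of the 94, 58 were at MUC5AC and MUC5B. H3K4me3 had 37 and 19 peaks (ratio 1.95, lists 1.25), H3K27ac 84 and 60 (1.4, lists 1.14) and Med1 20 and 28 (0.714, lists 0.97). Of the Jun family, JunB had 22 and 6 peaks (3.67, lists 3.15), Jun had 29 and 29 (1, lists 0.756), and JunD had 7 and 2 (3.5, lists 1.04). The covered length for pol II was 69.6 kb in A549 and 9.66 kb in B2B, and for H3K27ac 68.0 and 43.4 kb. Over the 7 targets A549 had 1.75 times as many peaks as B2B, and 1.12 times as many without MUC5AC and MUC5B. The A549 lists were themselves the longer for pol II, H3K4me3, H3K27ac, JunB and JunD, so an excess in A549 is not in itself particular to these loci. With lists of equal length the ratio over all 8 loci was 1.25.

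Counted by member, pol II had a peak within 50 kb of 6 of 10 members in A549 and 4 in B2B (84.2% and 71.6% of all genes), H3K4me3 of 10 and 7 (89.6% and 79%), and H3K27ac of 7 and 7 (87.4% and 78.5%). Med1 lay within 50 kb of 5 and 6 (74.4% and 76.6%), JunB of 4 and 4 (69.8% and 32.2%), Jun of 8 and 8 (80.6% and 76.8%), and JunD of 4 and 2 (40.7% and 24.1%). CTCF and Rad21 had peaks within 50 kb of all 10 members in B2B (93.8% and 89.8%).

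Other genes of the same cells, taken from lists of named markers, show where the members stand. In the list of 9 further alveolar type II genes, pol II lay near 6 in A549 (ABCA3, NAPSA, CTSH, LAMP3, LPCAT1 and LRRK2) and near 0 in B2B (68.8% and 51.7% of all genes), and H3K4me3 near 6 and 2 (74.6% and 63.1%). For H3K27ac it was 3 of the 6 that the A549 list covers, and 6 of 9 in B2B (73.5% and 64.3%). ABCA3 pumps lipid into the storage bodies of type II cells, and LPCAT1 makes surfactant phospholipid. Of the 12 further airway secretory genes, H3K4me3 lay near 3 in A549 (CYP2F1, AGR2 and SLPI) and near 0 in B2B (74.6% and 63.1% of all genes). AGR2, an isomerase needed for mucin folding, had pol II, H3K4me3, H3K27ac, Med1, JunB and Jun in A549, and of the 7 targets none in B2B.

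**Figure D5:**
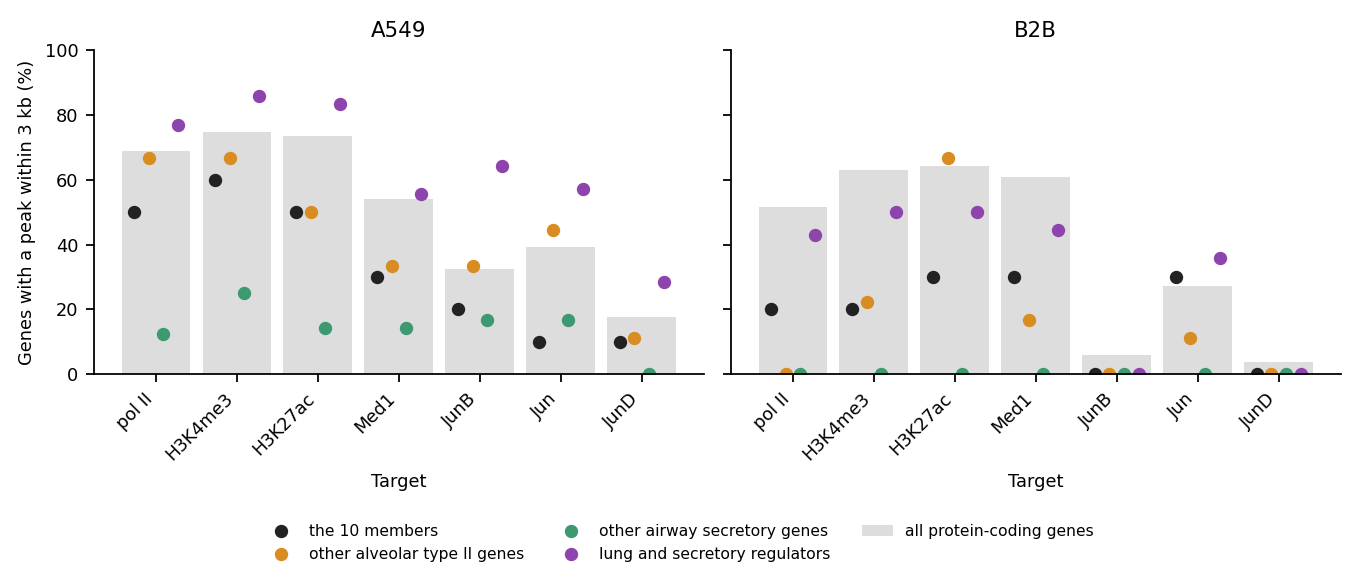
Share of genes with a peak within 3 kb (vertical axis, %) for each target in A549 (left) and B2B (right). Grey bars are all protein-coding genes of chromosomes 1 to 12, black points the 10 members and colored points 3 further lists, counted over the genes that each list of peaks covers: in B2B no further airway secretory gene has a peak of any of the 7 targets, and in A549 the regulators lie above the grey bars.

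Of 14 transcription factors listed as lung and secretory regulators, H3K4me3 lay near 12 in A549 and 7 in B2B (74.6% and 63.1% of all genes). H3K27ac lay near 5 of the 6 covered in A549 and 7 of 14 in B2B (73.5% and 64.3%), and Med1 near 5 and 4 of 9 (54.2% and 60.7%). JunB lay near 9 and 0 of the 14 (32.3% and 5.77%), Jun near 8 and 5 (39.2% and 27.1%), and JunD near 4 and 0 (17.7% and 3.68%). NKX2-1, which drives surfactant and secretoglobin genes, had 1 pol II and 1 H3K4me3 peak in A549, and 1 H3K4me3 and no pol II peak in B2B. FOXA1 had peaks of pol II, H3K4me3 and Med1 in both lines. At FOXA2, A549 had 2 H3K4me3 and 2 JunB peaks, 1 of Jun and 1 of JunD, and B2B had none of these. SPDEF, a factor of goblet cells, had 3 H3K4me3 and 6 H3K27ac peaks in A549 and none in B2B. Neither line had a pol II or Med1 peak near SPDEF. NKX2-1, FOXA1 and FOXA2 lie past the end of the A549 H3K27ac list, and FOXA2 is also not covered by A549 pol II or by Med1 of either line.

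The lines were checked against marker lists. For genes other than the members, in these and the other lists, peaks nearer to the start of another gene were not set apart. Of 6 epithelial genes, H3K4me3 lay near 4 in both lines (EPCAM, CDH1, KRT8 and KRT18), and of 5 mesenchymal genes near 5 in both lines. Of all genes, 74.6% had H3K4me3 in A549 and 63.1% in B2B. Of 4 immune genes, H3K4me3 lay near PTPRC and CD68 in A549 and near 0 in B2B, and pol II near CD68 in both lines (68.8% and 51.7% of all genes for pol II). Of the 5 surfactant genes, pol II lay near SFTPC and SFTPD in A549, and H3K4me3 near these and SFTPA2. At SFTPC the pol II peak was nearer to the start of BMP1. An H3K4me3 peak with its summit nearer to LGI3 spanned the SFTPC gene start. SFTPB had neither pol II nor H3K4me3 within 3 kb. Of the 9 further type II genes, the same 6 had pol II and H3K4me3 in A549 (68.8% and 74.6% of all genes).

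The genes whose pattern over the 16 lists was most like that of a member were found by the distance between the percentiles of their strongest peaks. For MUC5AC they were RAB17, LDLRAD1 and PRAP1 (distances 35.4, 37.3 and 37.3, where the median over all genes was 171), and for MUC5B PTP4A3, PTER and HENMT1 (42.1, 46.3 and 46.8, median 161). For MUC1 they were ZNF639, SLC26A8 and TCHP (27.6, 40 and 42.2, median 145). For SFTPD they were VWA1, ZDHHC11B and SLC10A4, for SFTPA2 MYH15, OLFML3 and IL20, and for SFTPC PHAX, CACNB3 and FYTTD1. A short distance can come from lists in which both genes have no peak.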

How the data were processed

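ChIP-seq of 36 samples in 18 groups of 2 was labelled, of which 4 were input samples. Reads were, per the labels and the published methods, aligned by the authors to hg38 with Bowtie2 2.4.4. Duplicates were removed, replicates merged and scaled with SAMtools 1.13, and peaks called with MACS2 2.2.7.1. The options and the control of the caller are not given in the sources used here. In the lists the authors deposited a score per peak, fold enrichment, and −log10 p and −log10 q values, and the lowest −log10 q was 2.002. Fold enrichment was taken as the ratio of summit pileup to background after the same constant was added to each. Fold and p were solved for the pileup and background reads of each peak under a Poisson model, and the share of pileups within 0.02 reads of a whole number was 100% in each list. On simulated peaks and windows the functions recovered the known values. No replicate was available alone, so no test was made.

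Peaks counted as near a gene when they overlapped, by at least 1 bp, 3 kb (or 50 kb) around any start site of GENCODE release 44. Shares over all genes used chromosomes 1 to 12, which every list covers. Python 3.11.15, NumPy 2.4.6, SciPy 1.17.1, pysam 0.24.0 and Matplotlib 3.10.9 were used. Alternatives were distances of 1, 5, 20 and 100 kb, the gene start only, summits inside the window, −log10 q of at least 5, lists of equal length and covered base pairs. The members, the gene lists and the rule for named genes (all members, 4 regulators, neighbors that share a peak, and the 3 genes most alike over 16 lists) were chosen with earlier results of these data known.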

Additional observations from a re-analysis of the deposited data

How the results depend on the processing

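No paired analysis was possible because the authors merged the replicates before calling peaks, and for the same reason no replicate could be left out. The number of pairs of gene and target with a peak within 3 kb, 23 in A549 and 13 in B2B, stayed above in A549 under every alternative run. Over all genes, too, the share was the higher in A549 for every target but Med1. In B2B the number of pairs was 6 at a distance of 1 kb and 7 with the gene start only. Of the alternatives added after the data were examined, the canonical start gave 8 in B2B and 5 members without a mark in place of 3, and counting only peaks whose nearest start was that of the member gave 15 in A549 and 7 in B2B. On chromosomes 1 to 12 the A549 lists held more peaks than those of B2B for most targets. The ratio of peaks within 50 kb, 1.75, was 1.12 without MUC5AC and MUC5B, and lay between 1.25 and 2.27 under the other alternatives. The cause of these changes was not tested, except that fewer start sites or shorter windows admit fewer peaks. Sequencing depth is not stated, and the shallowest peak of a member within 3 kb had 13 reads.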

Other observations

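Among 13 further mucin genes, taken from a list of named family members, pol II lay within 3 kb of 4 in A549 and 3 in B2B (68.8% and 51.7% of all protein-coding genes of chromosomes 1 to 12). H3K27ac lay near 4 of the 12 that the A549 list covers and near 4 of 13 in B2B (73.5% and 64.3%). Jun lay near 4 in A549 and 6 in B2B (39.2% and 27.1% of all genes), and JunB near 4 and 1 (32.3% and 5.77%). Of 5 genes of ciliated cells, pol II lay near 4 in A549 (FOXJ1, DNAH5, TPPP3 and CAPS) and near DNAH5 in B2B, while H3K27ac lay near 1 of the 2 covered in A549 and near 3 of 5 in B2B (73.5% and 64.3% of all genes). Of 8 basal or squamous genes, pol II lay near TP63, NGFR and ITGA6 in A549 and near KRT17 in B2B (68.8% and 51.7% of all genes). Of 5 alveolar type I genes, pol II lay near AGER and CAV1 in both lines. All 6 housekeeping genes had pol II and H3K4me3 in B2B and H3K4me3 in A549, and the 4 that the A549 pol II list covers had pol II there. These are values of 1 pooled list each, without replicate error.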
